A study of Danio rerio with 32 samples.

Results

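Loss of Keap1 was read in a set of 25 genes. It holds 16 keratins, 4 transglutaminases named after tgm1, and the 3 plakins evpla, evplb and ppl. Also included are krtcap2 and krtcap3, which share the first letters of their names with keratins but are not keratins. All 25 genes were selected by gene symbol from the 16825 rows of the count table (all symbols starting with krt or tgm1, with cyt1, cyt1l, evpla, evplb and ppl added). The family was chosen on measured values of these libraries after loss of keap1, with krt1-19e, krt4 and the tgm1-like genes as the genes named for it. In the fits used here krt4 was past the threshold in none of the 5 comparisons with keap1 editing, and tgm1l1 was not past it in crkeap1a/b larvae. Values after keap1 editing are therefore given as a description, with no p-value of a single member. Where members are counted or named as past the threshold in these comparisons, nothing is read from it. Of 35 symbols that meet the rule in the RefSeq gene table, 10 (krt5, krt15, krt18a.1, krt18a.2, krt95, krt98, krt99, tgm1l2, tgm1l4 and tgm1l5) are not analysed here. By gene ID they match no row of the count table, and what its rows without an ID hold is not known. Of the 25 genes, 24 passed the filter on low counts, and krt93 did not, with 115 counts over all libraries.

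Whole larvae were collected at 7 dpf (days after fertilization) in 8 groups, each of 4 pools of 10 larvae. WT larvae carry no edit. The crkeap1a, crkeap1b and crkeap1a/b larvae are crispants, in which CRISPR/Cas9 was injected at the single-cell stage against keap1a, keap1b or both, the zebrafish paralogs of Keap1, so that each larva is a mosaic of edited and unedited cells. Bach1 DKO larvae lack bach1a and bach1b through stable mutations made on a double transgenic reporter background, and Bach1 DKO crkeap1a/b larvae were injected against both keap1 paralogs as well. Nrf2 KO larvae come from an established nfe2l2a mutant line, and Nrf2 KO crkeap1a/b larvae are the crispants made in it. The study's methods state that controls came from the same clutch, but the labels tie no replicate number to a clutch, so spread between pools may be partly technical, and a line cannot be told apart from its background, clutch or handling.

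Keratins are the intermediate filaments of epithelial cells and assemble as pairs of an acidic (type I) and a basic (type II) chain. In the zebrafish larva the skin has a basal layer of keratinocytes, in which krt1-19e (formerly krtt1c19e) is active, under a superficial layer in which krt4, a type II chain, is strongly expressed. In mammalian skin, plakins such as envoplakin and periplakin anchor keratin filaments at the cell border, and transglutaminase 1 cross-links them with other proteins into the cornified envelope. Keap1 holds the transcription factor Nrf2 at a low level, Bach1 competes with Nrf2 at some of its binding sites, and mice without Keap1 are known for a thickened, keratin-rich lining of esophagus and forestomach. Zebrafish larval skin is not cornified.

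Reads came from transcript 3′ ends, so levels in CPM (each count scaled by the normalized size of its library) do not depend on gene length and may be set side by side. Total counts of rows with a gene ID ran from 1976901 to 2804487 per library, and 3 counts, taken as the detection floor, stood for 0.959 to 1.95 CPM. Markers of several larval tissues were present in all groups: hepatocyte markers summed to 804 to 4231 CPM and those of basal epidermis to 305 to 1406 CPM over the 32 pools. Transcripts of keap1a (12.4 to 136 CPM), keap1b (14.6 to 130.1 CPM), bach1a (5.69 to 31 CPM), bach1b (10.1 to 264 CPM) and nfe2l2a (212 to 510.3 CPM) were counted in every pool, and since an edit need not remove the 3′ end of a transcript, these levels check no label. In a principal component analysis, crkeap1a replicates 2 and 3 and crkeap1b replicates 1, 3 and 4 stood apart, at 45.7 to 69.0 on the first component against at most 21.8 for every other pool. The main results in those groups are also given without these 5 pools, a split chosen after the data were seen. In RNA from whole larvae, fewer cells of a type and less RNA per cell cannot be told apart. Keratin and transglutaminase genes have near-identical copies, and how the authors counted reads that match several copies is not stated, so a count may be shared between neighbours of a family.

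The 16 keratins together held 0.514% to 0.722% of the gene counts in WT pools. The share was 0.268% to 0.348% in crkeap1a/b and 0.115% to 0.17% in Bach1 DKO crkeap1a/b pools, without overlap with WT, and 0.72% to 1.09% in crkeap1a and 0.825% to 1.14% in crkeap1b pools. Nrf2 KO pools (0.713% to 0.98%) and Nrf2 KO crkeap1a/b pools (0.728% to 0.899%) covered much the same range. Among these 16, the most abundant in WT larvae were krt91 (1588 ± 286 CPM, SD, n = 4) and cyt1 (1526 ± 290.3 CPM), which overlap, followed by krt92 (873 ± 98.3 CPM) and cyt1l (716 ± 166 CPM), which also overlap. After them came krt97, krt17 and krt4 at 348, 348 and 267 CPM, within each other's ranges, and krt1-19e, krt94 and krt1-19d at 125, 106 and 89 CPM. The others lay at or below the 51.1 CPM of krt8.

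A run of 7 type I keratins lies in one stretch of the zebrafish genome. By gene order in the RefSeq annotation of the assembly GRCz12tu they run krt1-19d, krt1-19e, krt92, cyt1l, cyt1, krt17 and krt91, with 1 untested gene model between them. Their counts made up 85.2% to 87.7% of the counts of the 16 keratins with a row in WT pools, 75.8% to 79.3% in crkeap1a/b pools and 78.7% to 84.3% in Bach1 DKO crkeap1a/b pools. Summed over the 7 genes, WT pools were at 6439, 4296, 4964 and 5353 CPM and crkeap1a/b pools at 2495, 1894, 1926 and 2219.5 CPM. Bach1 DKO pools were at 5106, 4147, 5296 and 5967 CPM against 1183, 1165, 753 and 763 CPM after editing of both paralogs. In both backgrounds the edited pools lay below every unedited pool. In the Nrf2 KO line the sum was 9810.1, 7356, 6632 and 7949 CPM without and 8229, 6509, 7881 and 8829 CPM with editing, and the pools were mixed.

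**Figure D1:**
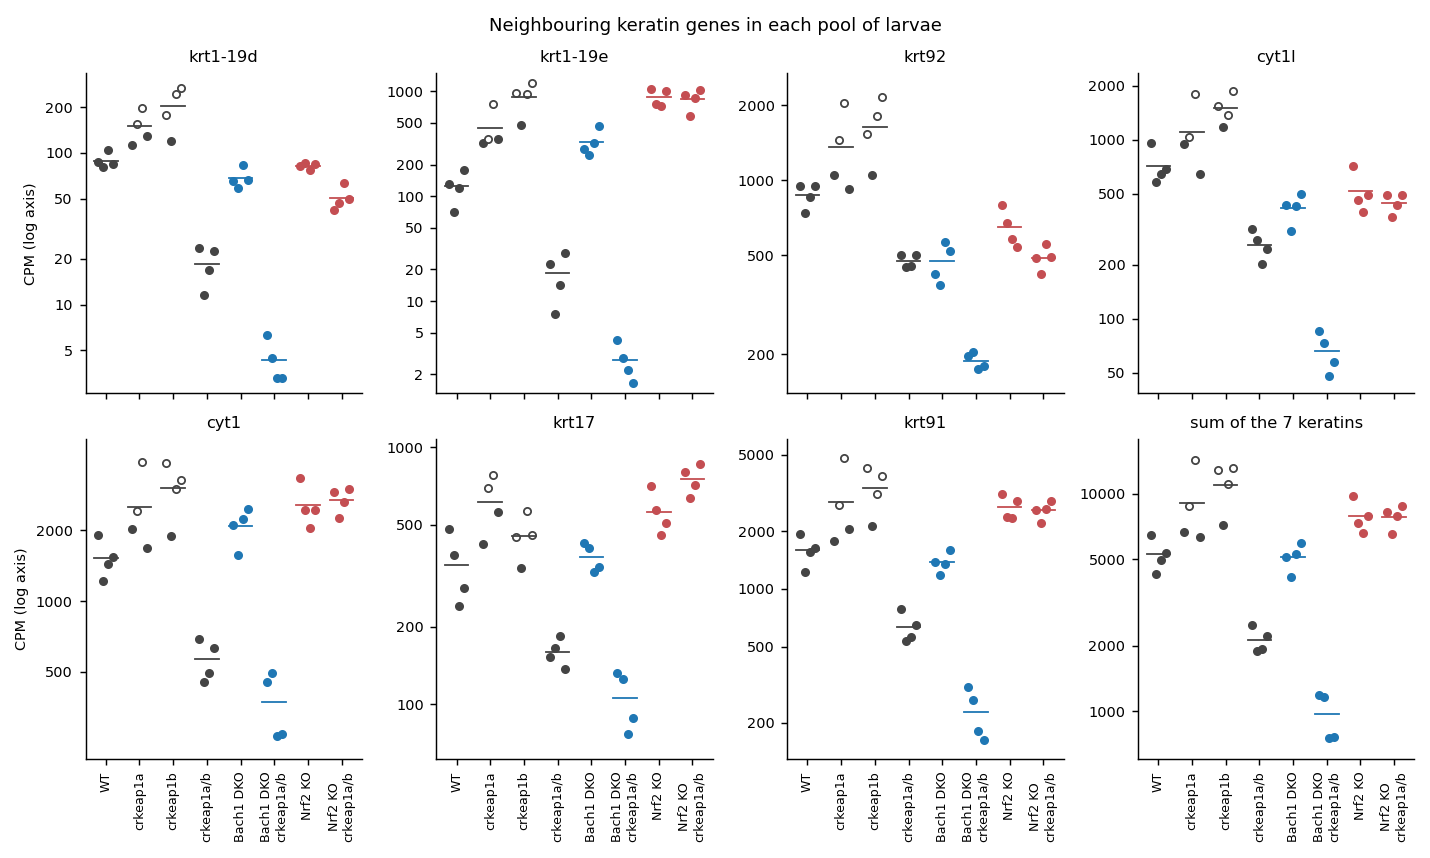
Level of each of the 7 neighbouring keratins and of their sum in CPM (log axis) in the 32 pools, 4 per group. Points are pools, horizontal lines group means, open points the 5 crkeap1a and crkeap1b pools that stand apart, and colours mark the WT background (grey), the Bach1 DKO line (blue) and the Nrf2 KO line (red). For the sum, crkeap1a/b pools lie at or below 2495 CPM and Bach1 DKO crkeap1a/b pools at or below 1183 CPM, under all pools of their unedited groups.

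The basal-layer keratin krt1-19e ran from 1.65 to 1194 CPM over the 32 pools. WT pools were at 131, 70.6, 119 and 179 CPM and crkeap1a/b pools at 22.7, 7.45, 14.4 and 28.9 CPM. Bach1 DKO pools were at 280.3, 247, 321 and 470.2 CPM, and Bach1 DKO crkeap1a/b pools were at 4.23, 2.88, 2.18 and 1.65 CPM, close to the floor. In both backgrounds the groups with and without keap1a/b editing did not overlap, with fitted log2 differences of -2.84 ± 0.35 SE and -6.83 ± 0.67 SE. Nrf2 KO pools were at 1057, 755, 731 and 1008 CPM and Nrf2 KO crkeap1a/b pools at 934, 579.7, 864 and 1043 CPM, and these overlapped (-0.07 ± 0.28 SE). The single crispants lay on the other side of WT: crkeap1a pools were at 319, 354, 751 and 354 CPM and crkeap1b pools at 967, 478, 940.3 and 1194 CPM, all above the highest WT pool. Ordered by mean, krt1-19e was lowest in Bach1 DKO crkeap1a/b larvae (2.73 CPM), then crkeap1a/b (18.4), WT (125), Bach1 DKO (329.7), crkeap1a (445), Nrf2 KO crkeap1a/b (855), Nrf2 KO (887) and crkeap1b (895). Pools of crkeap1a larvae overlapped with those of Bach1 DKO, crkeap1b and both Nrf2 KO groups, and crkeap1b pools overlapped with both Nrf2 KO groups.

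The remaining members of the run were ordered alike in the double crispants, over smaller distances. The neighbour of krt1-19e, krt1-19d, was at 86.9, 81.1, 104 and 84.1 CPM in WT and 23.5, 11.6, 16.8 and 22.5 CPM in crkeap1a/b pools. Bach1 DKO pools had 65.7, 58.9, 82.9 and 66.4 CPM of krt1-19d, and Bach1 DKO crkeap1a/b pools 6.34, 4.48, 3.27 and 3.3 CPM. Alone among the 7 genes it was also lower in every Nrf2 KO crkeap1a/b pool (41.7, 46.4, 63.6 and 49.7 CPM) than in every Nrf2 KO pool (82.5, 85.2, 77 and 84.5 CPM), with a log2 difference of -0.72 ± 0.20 SE. The abundant cyt1, a type I chain of the larval skin, was at 1908, 1212, 1436 and 1545 CPM in WT and 689.5, 455, 497 and 635 CPM in crkeap1a/b pools. For cyt1, Bach1 DKO pools were at 2102, 1569.8, 2225 and 2472 CPM and edited pools of that line at 453, 492, 266 and 272 CPM. Every edited pool thus lay below every unedited pool of its background for both genes.

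At the other end of the run, krt91 was at 1928, 1231, 1566 and 1627 CPM in WT and 789, 534, 561 and 652 CPM in crkeap1a/b pools. In the Bach1 DKO line krt91 was at 1382, 1179, 1349 and 1599.7 CPM without and 306, 263, 182 and 162 CPM with editing. Between cyt1 and krt91 lies krt17, at 483, 383, 240.3 and 284 CPM against 152, 165, 184 and 137 CPM in crkeap1a/b pools. In the Bach1 DKO line krt17 pools were at 424, 404, 326 and 342 and 132, 125, 76.6 and 88.6 CPM. For cyt1l the values were 956, 578, 642 and 687 CPM in WT and 316, 275, 201 and 245 CPM in crkeap1a/b pools, and 430.5, 309, 428 and 497 and 85.3, 73.2, 47.9 and 57.3 CPM in the Bach1 DKO line. The smallest log2 difference belonged to krt92, at 946, 739.6, 857 and 948 CPM in WT and 501, 446, 452 and 499.7 CPM in crkeap1a/b pools, with means of 471 and 188 CPM in Bach1 DKO larvae. No edited pool overlapped an unedited pool of its background for any of the 7. Among all tested rows, 6.32% were lower and 6.09% higher without overlap in crkeap1a/b larvae, 17% and 17.1% in Bach1 DKO crkeap1a/b larvae, and 5.98% and 5.95% in Nrf2 KO crkeap1a/b larvae, each against its unedited group. Because the choice of members used these contrasts, nothing is read from the count of 7. The log2 difference ran from -2.84 (krt1-19e) to -0.87 (krt92) in the WT background, with a median of -1.42, and from -6.83 (krt1-19e) to -1.31 (krt92) in the Bach1 DKO line, with a median of -2.63. In the Nrf2 KO line it ran from -0.72 (krt1-19d) to 0.44 (krt17), with a median of -0.07.

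The genes that flank the run give values from the same stretch of chromosome that the choice of members did not use. Those compared were si:dkeyp-113d7.10 and si:dkeyp-113d7.1 on the krt1-19d side, and eif1, a translation initiation factor, jupb, a plakoglobin of cell junctions, and wipf2b on the krt91 side. In human, EIF1 and JUP likewise lie next to a type I keratin cluster. In crkeap1a/b larvae against WT none of these 5 was called, a call being an adjusted p under 0.05 by limma-voom (2 at an unadjusted p under 0.05, 0 calls by edgeR and 0 by DESeq2). Of all tested rows 3.35% were called higher and 1.94% lower in that comparison, so the absence of calls among 5 genes says little. For eif1, immediately beside krt91, every crkeap1a/b pool (811, 689, 688 and 615 CPM) lay below every WT pool (944, 879.9, 886 and 852 CPM), a log2 difference of -0.35 ± 0.14 SE that did not pass (adjusted p 0.139 by limma-voom). In Bach1 DKO crkeap1a/b larvae against Bach1 DKO both genes on the krt1-19d side fell, si:dkeyp-113d7.10 by 0.87 ± 0.20 SE and si:dkeyp-113d7.1 by 0.59 ± 0.19 SE on the log2 scale (adjusted p by limma-voom 0.00141 and 0.0207). Of all tested rows 11.7% were called lower in the same comparison. The call of si:dkeyp-113d7.1 was lost without Bach1 DKO replicate 1 (-0.49) or 4 (-0.56) or edited replicate 1 or 2 (-0.52 and -0.53). The genes on the krt91 side were not called there, and jupb was at 26.3 and 20.3 CPM. With all pools, eif1 rose in crkeap1a (0.49 ± 0.14 SE, adjusted p 0.0167 by limma-voom) and in crkeap1b larvae (0.49 ± 0.14 SE, adjusted p 0.0123 by limma-voom). Without the 5 pools that stand apart neither call was made, with eif1 at 0.21 and 0.06. Leaving out crkeap1a replicate 2 or 3, or crkeap1b replicate 3 or 4, also ended the call of eif1 (0.35 to 0.43).

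In the single crispants the group means of all 7 genes of the run were above WT, and how far above depended on the pool. The 7 genes summed to 6649, 8828, 14318 and 6339 CPM in crkeap1a and 12818, 7164, 11081 and 13094 CPM in crkeap1b pools. The crkeap1a replicate 3 was the highest pool of its group for all 7 genes, and crkeap1b replicate 2, the pool of that group that does not stand apart, was the lowest for all 7. With all pools the log2 difference from WT ran from 0.55 (cyt1l) to 1.81 (krt1-19e) in crkeap1a and from 0.41 (krt17) to 2.84 (krt1-19e) in crkeap1b larvae. Without the 5 pools that stand apart, krt1-19e differed from WT by 1.5 in crkeap1a and by 2.01 in crkeap1b larvae, and the other 6 genes by at most 0.54 (krt17) and 0.74 (cyt1l). Then crkeap1b is represented by 1 pool, which is assumed to vary like the other groups. Markers of internal organs moved with these pools. The hepatocyte list summed to 1707, 3040, 3410 and 1658 CPM in crkeap1a and 3127, 1589, 3015 and 4231 CPM in crkeap1b pools, against 1475 to 2395 CPM in WT. The enterocyte list summed to 1175, 1500, 2012 and 1302 CPM and 1556, 1093, 1962 and 2588 CPM, against 1001 to 1291 CPM in WT. All 5 pools that stand apart were above the highest WT pool for both lists, and their part in the keratin levels was not tested.

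Of the keratins elsewhere in the genome, krt97 and krt94 followed the run. For krt97, WT pools were at 312, 268, 426 and 387 CPM and crkeap1a/b pools at 121, 135, 119 and 94.9 CPM, and Bach1 DKO pools at 333, 289, 359 and 359.5 CPM against 116, 112, 96.5 and 94 CPM with editing. Neither pair of groups overlapped. In the Nrf2 KO line krt97 was at 312, 245, 326 and 339.6 CPM without and 407, 267, 333 and 425 CPM with editing, with overlap. For krt94, WT pools were at 118, 115, 88.9 and 100.3 CPM and crkeap1a/b pools at 49.1, 74.2, 68.6 and 50 CPM, without overlap. The Bach1 DKO line had 41.2, 47.2, 47.3 and 52.7 CPM of krt94 without and 29.6, 31, 27.2 and 33 CPM with editing, again without overlap, and Nrf2 KO larvae had means of 71.7 and 65.5 CPM. The adjacent krt93 was at or below 7.57 CPM in every pool and at 0 in 2 crkeap1a/b, 3 Bach1 DKO crkeap1a/b pools and 1 edited Nrf2 KO pool.

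The remaining keratins did not separate in this way in crkeap1a/b larvae. The simple-epithelial type II keratin krt8 was at 51.1 CPM in WT and 39 CPM in crkeap1a/b larvae, with overlapping pools, and at 32.9 and 34.7 CPM in the Bach1 DKO line. The low-level krt1-c5 was higher in edited pools, at 15.3 to 20 CPM against 7.94 to 14.3 CPM in WT, and at 13.7 to 29.8 CPM against 7.08 to 10 CPM in Bach1 DKO larvae. For krt222, the immediate neighbour of krt97, the 32 pools ran from 6.57 to 21.6 CPM and pools of each edited and unedited pair overlapped. The keratinocyte-associated krtcap2 and krtcap3 had group means of 17.7 to 37.9 CPM and 2.32 to 9.96 CPM.

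A further 3 keratins, krt4, krt96 and krt18b, differed between lines, and also widely between pools of some groups. The superficial-layer keratin krt4 was at 365, 147, 259 and 294 CPM in WT and 411, 212, 297 and 328 CPM in crkeap1a/b pools. All 16 pools of the mutant lines were far lower: Bach1 DKO pools had 17.1, 9.61, 13.4 and 20.8 CPM and Nrf2 KO pools 9.65, 11.7, 6.54 and 4.09 CPM. Their edited groups had 1.76, 4.48, 2.9 and 5.77 CPM and 4.69, 7.96, 7.54 and 10 CPM, the former below every Bach1 DKO pool. In the single crispants the pools split. The crkeap1a pools were at 14.1, 14.9, 153 and 360.2 CPM and crkeap1b pools at 727, 271, 9.73 and 26 CPM of krt4, so that over the 32 pools 12 lay at or above 147 CPM and 20 at or below 26.0 CPM, with none between. Of the 4 low pools, 3 (crkeap1a replicate 2 and crkeap1b replicates 3 and 4) also stand apart on the first component and crkeap1a replicate 1 does not, while crkeap1a replicate 3 and crkeap1b replicate 1 stand apart with high krt4. Against WT, krt4 fell by 4.10 ± 0.98 SE in Bach1 DKO larvae (adjusted p 0.00237 by limma-voom) and by 5.07 ± 1.28 SE in Nrf2 KO larvae (adjusted p 0.0051 by limma-voom) on the log2 scale. Since krt4 was named in the choice of the family and the WT pools are shared, these p-values are not independent of that choice.

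The keratin krt96, next to krt97, was high in the Nrf2 KO line. Nrf2 KO pools were at 71.9, 114, 82.6 and 84.5 CPM and Nrf2 KO crkeap1a/b pools at 71.3, 132, 101 and 60.6 CPM, above all other pools. WT pools were at 19.8, 39.4, 3.24 and 18.8 CPM and Bach1 DKO pools at 4.38, 8.41, 0.446 and 2.21 CPM. Against WT, krt96 rose by 2.56 ± 0.46 SE in Nrf2 KO larvae (adjusted p 0.000111 by limma-voom), a value of 1.83 without WT replicate 3, the lowest WT pool. Between the mutant lines it was 4.90 ± 0.90 SE higher in Nrf2 KO larvae (adjusted p 9.5e-05 by limma-voom), and 4.22 higher without Bach1 DKO replicate 3. The single crispants were at 0.97, 1.8, 6.12 and 6.06 CPM and 3.04, 3.32, 5.41 and 9.12 CPM, all below the 3 highest WT pools. Fitted log2 differences of krt96 from WT were -2.21 and -1.65 for crkeap1a and crkeap1b, or -2.32 and -2.06 without the 5 pools that stand apart. In crkeap1a/b larvae krt96 was at 29.7, 2.98, 23.8 and 26.8 CPM, a range much like that of WT, with 1 low pool in each.

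For krt18b, a type I chain of simple epithelia, 2 Bach1 DKO pools had no count and the others 3.94 and 10.4 CPM, against 6.6, 10.1, 11.9 and 39.3 CPM in WT and 16.4, 29.1, 12.1 and 23.6 CPM in Nrf2 KO pools. Its fitted log2 difference was -3.42 ± 0.99 SE from WT (adjusted p 0.0111 by limma-voom; the pools overlap), and between -4.52 without Bach1 DKO replicate 2 and -2.60 without Bach1 DKO replicate 3 or 4. Nrf2 KO exceeded Bach1 DKO larvae by 3.93 ± 0.99 SE for krt18b (adjusted p 0.00307 by limma-voom), with values from 3.09 without Bach1 DKO replicate 4 to 5.03 without replicate 2. By edgeR the krt18b differences were -2.18 and 2.43. Edited pools of the Bach1 DKO line had 7.75, 6.39, 0 and 0.824 CPM of krt18b. In both groups of this line replicates 1 and 2 thus lay above replicates 3 and 4, and the source of this split was not tested.

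**Figure D2:**
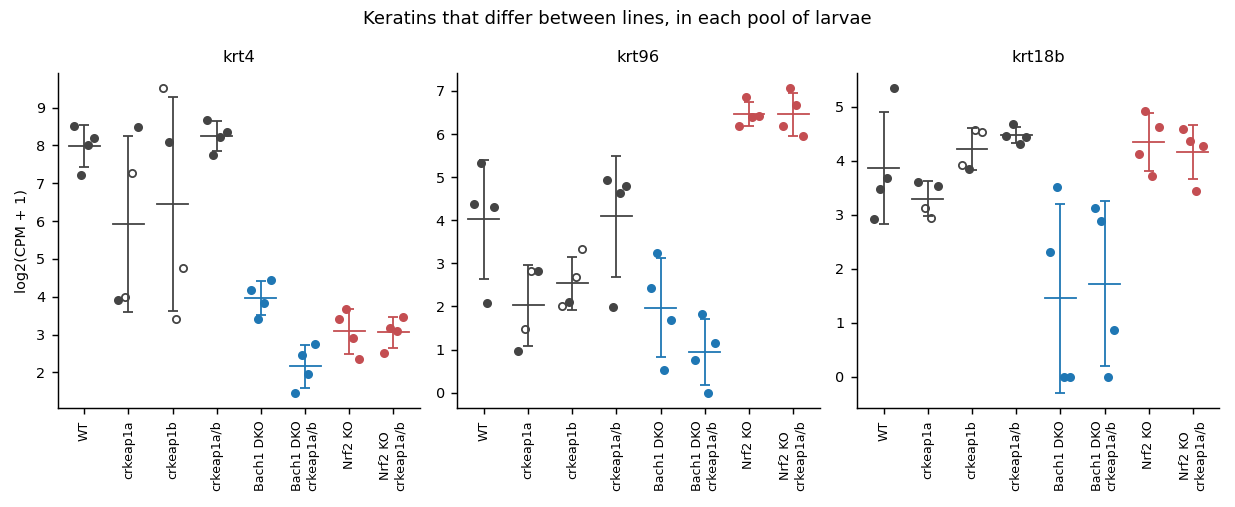
Levels of krt4, krt96 and krt18b as log2(CPM + 1) in the 32 pools, with the group mean and SD (n = 4) as lines and error bars, open points for the 5 pools that stand apart and colours for the WT background (grey), Bach1 DKO line (blue) and Nrf2 KO line (red). For krt4 all 16 pools of the mutant lines lie at or below 20.8 CPM, krt96 is highest in the 8 Nrf2 KO line pools, and krt18b is at 0 in 3 pools of the Bach1 DKO line.

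Of the transglutaminases, tgm1l3 and tgm1l6, which lie next to each other, were nearly lost after editing of both paralogs. For tgm1l3, WT pools were at 12.5, 12.9, 12.6 and 10.8 CPM and crkeap1a/b pools at 1.47, 0.745, 0.7 and 0.357 CPM, without overlap. The first of these crkeap1a/b pools was just above the floor and the others were below it. Bach1 DKO pools were at 15.3, 14.8, 20.1 and 13.7 CPM, and no read of tgm1l3 was counted in any of the 4 Bach1 DKO crkeap1a/b pools, so that the level was at least 14.7-fold lower against a floor of 3 counts per library. The single crispants lay above WT, at 23.8, 46.4, 27 and 13.7 CPM in crkeap1a and 26.3, 30.7, 48.1 and 24.7 CPM in crkeap1b pools. Their log2 differences from WT were 1.03 and 1.36, and 0.54 and 1.33 without the 5 pools that stand apart. In the Nrf2 KO line tgm1l3 was at 2.89, 8.16, 6.07 and 9.99 CPM without and 4.22, 5.31, 6.12 and 1.82 CPM with editing, and every Nrf2 KO pool was below every WT pool. For tgm1l6, WT pools were at 9.9, 8.97, 5.76 and 5.05 CPM, crkeap1a/b pools at 2.2, 0, 0.35 and 1.43 CPM and Bach1 DKO pools at 16.6, 15.6, 29.4 and 9.74 CPM. It had no count in Bach1 DKO crkeap1a/b pools, at least 16.4-fold lower than in Bach1 DKO larvae. In Nrf2 KO larvae tgm1l6 was at 6.27, 7.14, 7 and 11.4 CPM and in Nrf2 KO crkeap1a/b larvae at 2.81, 3.98, 8.95 and 0.456 CPM, with overlap. At this depth a residual level under the floor was not detectable. The more distant tgm1l1 was at 14.7, 14.4, 9.35 and 12.6 CPM in WT and 8.06, 10.4, 8.75 and 7.14 CPM in crkeap1a/b pools. It was at 10.5, 10.4, 21.4 and 20.8 CPM in Bach1 DKO and 5.29, 5.43, 11.3 and 16.1 CPM in Bach1 DKO crkeap1a/b pools. Both pairs overlapped, with fitted log2 differences of -0.55 ± 0.29 SE and -0.83 ± 0.29 SE, so tgm1l1 was also lower on average. In the Bach1 DKO line each edited pool had less tgm1l1 than the unedited pool of the same replicate number. The gene named tgm1 itself was low everywhere, at 2.57, 3.9, 4.68 and 1.44 CPM in WT and 4.4, 1.86, 2.8 and 1.07 CPM in crkeap1a/b pools, with group means from 1.6 to 4.02 CPM, and pools with and without editing of both paralogs overlapped in all 3 backgrounds.

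**Figure D3:**
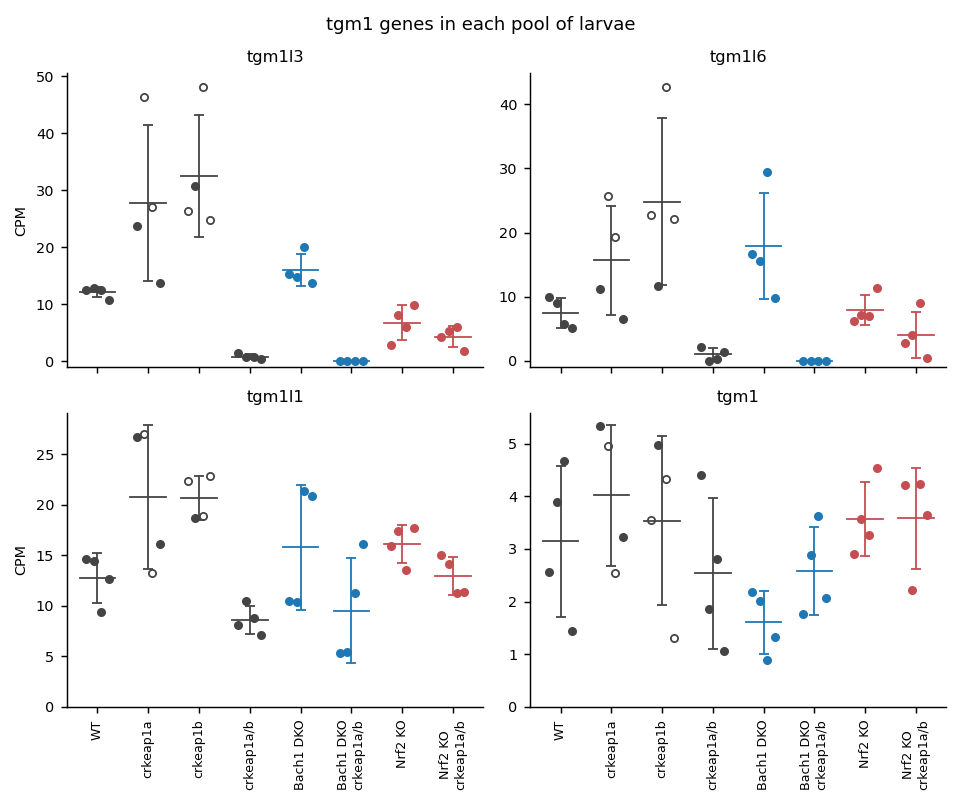
Levels of the 4 tgm1 genes in CPM in the 32 pools, with group means (lines) and SD (error bars, n = 4), open points for the 5 pools that stand apart and colours for the WT background (grey), Bach1 DKO line (blue) and Nrf2 KO line (red). Both tgm1l3 and tgm1l6 are at 0 in all Bach1 DKO crkeap1a/b pools and at most 1.47 and 2.2 CPM in crkeap1a/b pools, whereas pools of tgm1l1 and tgm1 overlap.

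The 3 plakins went different ways, so that their sum mixes genes that were lower and higher after editing. Summed over evpla, evplb and ppl, WT pools were at 244 to 304 CPM, crkeap1a/b pools at 231 to 273 CPM, Bach1 DKO pools at 309 to 375 CPM and Bach1 DKO crkeap1a/b pools at 308 to 341 CPM. Among them evplb was lower after editing of both paralogs, at 27.1, 22.7, 27.3 and 24.6 CPM against 62, 35.1, 43.2 and 49.5 CPM in WT, and at 50.8, 39.6, 43.2 and 49.9 CPM against 64.4, 56.9, 90.9 and 90.8 CPM in Bach1 DKO larvae, without overlap, as for the keratins of the run. In Nrf2 KO crkeap1a/b against Nrf2 KO larvae evplb differed by 0.05 on the log2 scale. Its paralog evpla was higher in edited pools, at 72.2, 114, 81.9 and 95.3 CPM against 68.9, 69.8, 58.6 and 69.7 CPM, and at 133, 137, 120.1 and 122 CPM against 80.6, 98.1, 107 and 84.6 CPM, again without overlap. In the Nrf2 KO line evpla was at 82, 55.6, 67.7 and 57.7 CPM without and 107, 116, 90.4 and 97.9 CPM with editing, also without overlap. Fitted log2 differences of evpla in these backgrounds were 0.43 ± 0.28 SE, 0.47 ± 0.27 SE and 0.655 ± 0.286 SE, none past the threshold. Of all tested rows, 6.09%, 17.1% and 5.95% were higher without overlap in the same comparisons. For ppl, which encodes periplakin, WT pools were at 173, 148, 142 and 164 CPM and crkeap1a/b pools at 132, 136, 134 and 148 CPM, with overlap. The mutant lines had 176, 154, 177 and 187 CPM (Bach1 DKO) and 126, 108, 107 and 108 CPM (Nrf2 KO) of ppl, and all single crispant pools lay below the lowest WT pool, at 92.6, 90.6, 61.7 and 136 CPM in crkeap1a and 108, 129, 92.5 and 63.2 CPM in crkeap1b larvae. Without the 5 pools that stand apart the log2 difference of ppl from WT was -0.46 and -0.27, in place of -0.76 and -0.69.

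In the single crispants evpla followed the pools that stand apart. The crkeap1a pools were at 47, 9.46, 9.69 and 49.7 CPM and crkeap1b pools at 12.2, 66, 13 and 14.3 CPM. The 5 pools at or below 14.3 CPM were the same 5 that lie apart on the first component, and the other 27 pools of the study were at 47.0 CPM or more. The plectin genes pleca and plecb, from the list of basal epidermis and hemidesmosome genes, moved with them: pleca was at 289.5, 64.9, 79.1 and 317 CPM in crkeap1a and 137, 362, 104 and 76.8 CPM in crkeap1b pools, and plecb at 297, 130.2, 94.9 and 285 and 190.0, 303, 112 and 77.5 CPM, against 265 to 392 and 342 to 382 CPM in WT. Without those pools evpla differed from WT by -0.45 in crkeap1a and -0.01 in crkeap1b larvae on the log2 scale, against -1.58 and -1.64 with them. What sets these pools apart was not tested.

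**Figure D4:**
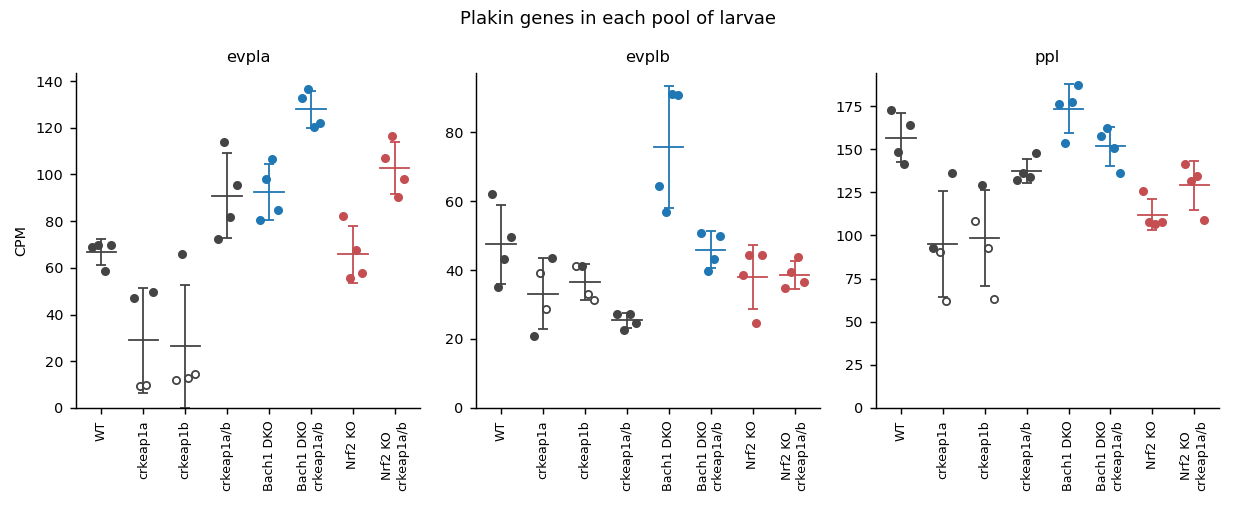
Levels of evpla, evplb and ppl in CPM in the 32 pools, with group means (lines) and SD (error bars, n = 4), open points for the 5 pools that stand apart and colours for the WT background (grey), Bach1 DKO line (blue) and Nrf2 KO line (red). The 5 open points of evpla lie between 9.46 and 14.3 CPM, and all 27 filled points at 47.0 CPM or more.

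Between lines without keap1 editing, calls of members are given with their adjusted p. These contrasts hold no keap1 editing, but they share pools with the comparisons that led to the choice of the family. Their p-values are therefore not independent of that choice, least of all for krt1-19e, krt4 and the tgm1-like genes named in it. In Bach1 DKO larvae against WT, 3 of 24 members rose and 6 fell, where 11.8% of all 14108 tested rows rose and 11.6% fell. The risers were krt1-19e (1.43 ± 0.27 SE, adjusted p 0.000194 by limma-voom), evplb (0.67 ± 0.18 SE, adjusted p 0.00702) and tgm1l6 (1.20 ± 0.41 SE, adjusted p 0.0325). Besides krt4 and krt18b, krt94 (-1.16 ± 0.19 SE, adjusted p 3.71e-05 by limma-voom), krt92 (-0.90 ± 0.18 SE, 0.0005), cyt1l (-0.78 ± 0.22 SE, 0.00947) and krt8 (-0.64 ± 0.23 SE, 0.0455) fell. Within the run of 7 neighbours, 1 gene therefore rose, 2 fell and 4 were not called. The calls of cyt1l (-0.63 without WT replicate 1), krt8 (-0.71 to -0.57 without any 1 of the Bach1 DKO pools or WT replicate 1, 2 or 4) and tgm1l6 (0.94 to 1.20 without Bach1 DKO replicate 1 or 3 or WT replicate 3 or 4, and by DESeq2) were lost in these settings.

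In Nrf2 KO larvae against WT, 5 of 24 members rose and 4 fell, where 8.41% of all rows rose and 7.48% fell. The increase of krt1-19e was the clearest, from 125 ± 44.4 to 887 ± 168 CPM (SD, n = 4). Its log2 difference was 2.88 ± 0.28 SE (adjusted p 1.35e-09 by limma-voom), and the call was made without any single pool. Farther along the run, cyt1 (0.75 ± 0.23 SE, adjusted p 0.0205 by limma-voom), krt17 (0.72 ± 0.20 SE, 0.00967) and krt91 (0.76 ± 0.23 SE, 0.0175) also rose. The genes adjacent to krt1-19e, krt1-19d (-0.11) and krt92 (-0.44), were not called, nor was cyt1l (-0.49). Outside the run krt96 rose. Besides krt4, krt94 (-0.56 ± 0.19 SE, adjusted p 0.0348 by limma-voom), krt8 (-0.68 ± 0.24 SE, 0.0468) and ppl (-0.48 ± 0.16 SE, 0.0379) fell. The calls of cyt1, krt17 and krt91 were lost without Nrf2 KO replicate 1 (0.60, 0.59 and 0.67), those of cyt1 and krt91 also without WT replicate 2 (0.64 and 0.65) and that of krt17 without WT replicate 3 (0.56). Those of krt94 (without Nrf2 KO replicate 4, -0.45, or WT replicate 1 or 2, -0.52 and -0.51), krt8 and ppl (each without Nrf2 KO replicate 2, 3 or 4 or WT replicate 1, 2 or 4, -0.72 to -0.58 and -0.50 to -0.45) were lost too. Without WT replicate 2 the 9 calls became 4.

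Between the mutant lines, 6 of 24 members were called higher and 3 lower in Nrf2 KO than in Bach1 DKO larvae, where 12.9% of all rows were higher and 12.4% lower. The higher ones were krt1-19e (1.45 ± 0.28 SE, adjusted p 0.000144 by limma-voom), krt91 (0.96 ± 0.23 SE, 0.00165), krt94 (0.60 ± 0.20 SE, 0.0244), krt17 (0.57 ± 0.20 SE, 0.0292), krt96 and krt18b. The lower ones were evplb (-0.99 ± 0.20 SE, adjusted p 0.000215 by limma-voom), ppl (-0.63 ± 0.16 SE, 0.00379) and tgm1l3 (-1.31 ± 0.37 SE, 0.00741). The call of krt94 was lost without Bach1 DKO replicate 1 or Nrf2 KO replicate 1, 2 or 3 (0.53 to 0.57), and that of krt17 without Bach1 DKO replicate 3 or 4 or Nrf2 KO replicate 1 or 2 (0.44 to 0.54). Median log2 differences over the 24 members were -0.17, -0.08 and 0.20 in these 3 comparisons, beside 0.01 to 0.02 over all rows.

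Counted by the same threshold, and as a description only because keap1 loss chose the family, the members divided as follows after editing. In crkeap1a/b larvae 0 of 24 members were past the threshold upwards and 12 downwards (all rows 3.35% and 1.94%), and in Bach1 DKO crkeap1a/b larvae 1 (krt1-c5) upwards and 13 downwards (all rows 13.7% and 11.7%). In crkeap1a larvae 8 were past it upwards and 2 (ppl and evpla) downwards (all rows 6.24% and 6.97%), and in crkeap1b larvae 11 upwards and the same 2 downwards (all rows 9.85% and 8.22%). Without the 5 pools that stand apart, the counts in crkeap1a larvae became 1 upwards (krt1-19e) and 0 downwards. Calls over all rows went from 1865 of 14108 to 313 of 15357 in the same comparison, so calls became fewer in general. For crkeap1b larvae that fit rests on 1 pool. Leaving out crkeap1a replicate 2 or 3 alone, both of which stand apart, left 5 genes past the threshold in crkeap1a larvae in place of 10. In Nrf2 KO crkeap1a/b larvae against Nrf2 KO none of 24 was past it in either direction (all rows 0.73% and 0.0921%), with 6 at an unadjusted p under 0.05 by limma-voom, 0 calls by edgeR and 1 by DESeq2. Median log2 differences over the members were 0.45 in crkeap1a, 0.53 in crkeap1b, -0.68 in crkeap1a/b, -1.07 in edited Bach1 DKO and -0.05 in edited Nrf2 KO larvae, each against its unedited group, beside medians from -0.05 to 0.01 over all rows. The comparisons of crkeap1a, crkeap1b and crkeap1a/b larvae share the WT pools.

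**Figure D5:**
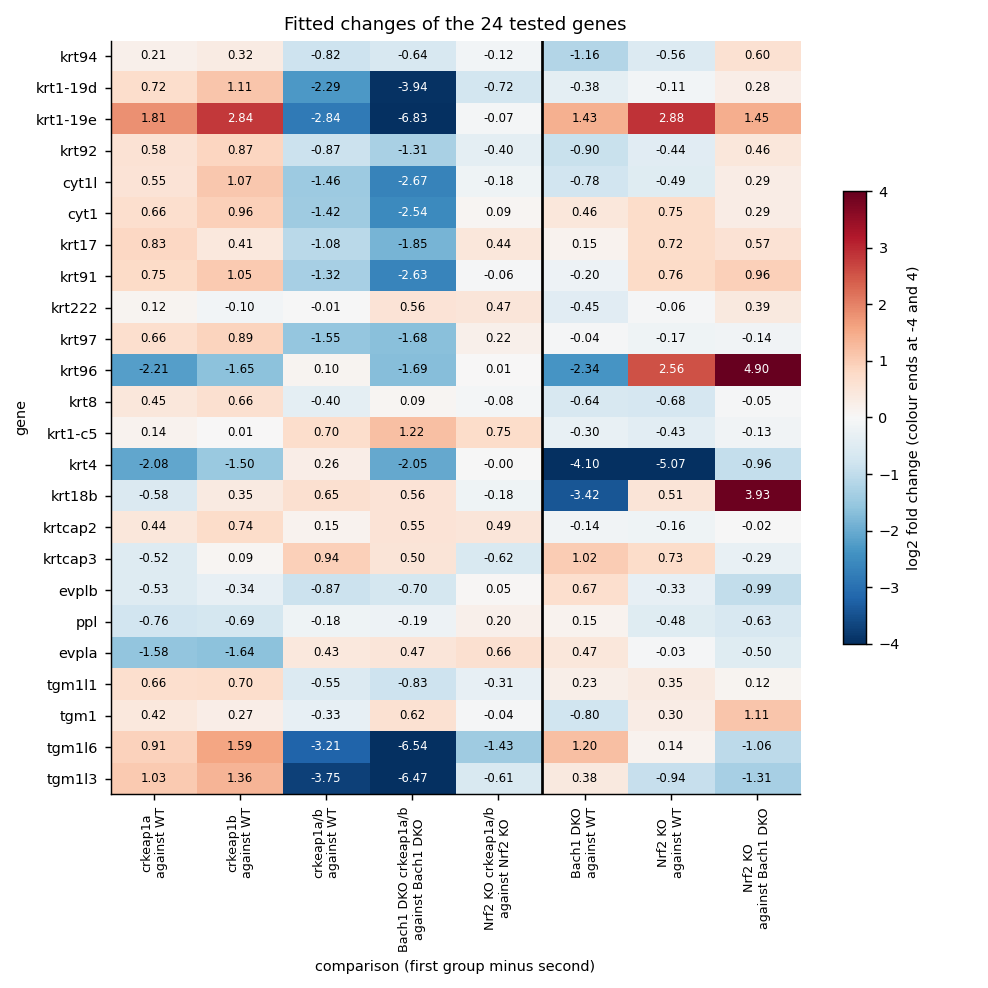
Fitted log2 fold changes of the 24 tested genes (rows) in 8 comparisons (columns, first group minus second), 5 with keap1 editing to the left of the line and 3 between lines to the right. Colour runs from -4 (blue) to 4 (red) and the number in each cell is the value. The run from krt1-19d to krt91 is negative throughout in crkeap1a/b larvae and their Bach1 DKO counterparts and positive in crkeap1a and crkeap1b larvae, and lies between -0.72 and 0.44 for editing in the Nrf2 KO line.

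The change after editing both paralogs was also set side by side between backgrounds. The log2 change of krt1-19e in the Bach1 DKO line minus that in the WT background was -3.99 ± 0.76 SE, and for krt91, cyt1l and cyt1 this difference was -1.31 ± 0.31 SE, -1.21 ± 0.31 SE and -1.11 ± 0.32 SE. For the rest of the run it was -1.65 ± 0.44 SE (krt1-19d), -0.77 ± 0.28 SE (krt17) and -0.44 ± 0.26 SE (krt92). For krt97, which lies elsewhere, it was -0.12 ± 0.27 SE and for krt94 it was 0.18 ± 0.28 SE. For tgm1l6 and tgm1l3, also elsewhere, it was -3.32 ± 1.51 SE and -2.725 ± 1.138 SE, with no count in edited Bach1 DKO pools. In the Nrf2 KO line the change of krt1-19e was 2.78 ± 0.45 SE above that in the WT background, that of krt97 1.77 ± 0.27 SE, that of cyt1 1.51 ± 0.32 SE and that of tgm1l3 3.14 ± 0.84 SE. These are differences of fitted values with their SE, given without a test, and the level from which each line started differed as shown above.

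Genes of neighbouring roles, not in the set, were counted from lists compiled with earlier results of these data known. Over all rows 3.35% were called higher and 1.94% lower in crkeap1a/b larvae, and 13.7% and 11.7% in Bach1 DKO crkeap1a/b larvae. The shares were 6.24% and 6.97% in crkeap1a, 9.85% and 8.22% in crkeap1b, and 11.8% and 11.6% in Bach1 DKO larvae against WT. Of 10 tested desmosome genes, which hold keratin filaments at cell junctions, none was called in crkeap1a/b larvae (0 at an unadjusted p under 0.05 by limma-voom, 0 calls by edgeR and 0 by DESeq2), and their summed level was 461 to 490.4 CPM against 461 to 525 CPM in WT. In Bach1 DKO crkeap1a/b larvae 1 desmosome gene rose, the desmoplakin gene dspa (0.58 ± 0.14 SE, adjusted p 0.00225 by limma-voom). In Bach1 DKO larvae against WT the desmocollin gene dsc2l (-1.25 ± 0.19 SE, adjusted p 1.07e-05 by limma-voom) and the plakophilin gene pkp1b (-1.58 ± 0.35 SE, 0.00119) fell. Of 9 tested genes of basal epidermis and hemidesmosome, none was called in crkeap1a/b larvae (3 at an unadjusted p under 0.05 by limma-voom, 0 calls by edgeR and 0 by DESeq2). The summed level of this list was 1123 to 1377 CPM in crkeap1a/b pools, above the 865 to 1042 CPM of WT, and 1306 to 1406 CPM in Bach1 DKO crkeap1a/b pools, overlapping the 1105 to 1316 CPM of Bach1 DKO. Plectin made up most of this sum: list means were 977 CPM in WT and 1263 CPM in crkeap1a/b larvae. Of these, pleca held 345 and 598 CPM and plecb 366 and 421 CPM. Means of col17a1a (100.7 and 75.3 CPM), itgb4 (73.6 and 63.4), col17a1b (9.5 and 5.8) and tp63 (6.93 and 6.02) were lower in crkeap1a/b larvae. Those of dst (65.4 and 79), itga6l (4.97 and 7.45) and cldni (3.4 and 4.36) were higher. The plectin gene pleca was at 507 to 677 CPM in crkeap1a/b against 265 to 392 CPM in WT. In the Bach1 DKO line it was at 605.5 to 687 CPM against 408 to 479 CPM. Neither pair overlapped, and pleca passed in neither (0.80 ± 0.34 SE and 0.54 ± 0.34 SE, adjusted p 0.181 and 0.249 by limma-voom). These SE and p-values rest on a spread estimate shared by all 8 groups. It includes crkeap1a and crkeap1b pools, at 64.9 to 317 and 76.8 to 362 CPM, which enter neither comparison. In Bach1 DKO crkeap1a/b larvae 1 of the 9 rose, the claudin gene cldni (1.61 ± 0.41 SE, adjusted p 0.00378 by limma-voom), and 2 fell, the integrin gene itgb4 (-1.46 ± 0.23 SE, 9.17e-06) and the hemidesmosomal collagen gene col17a1a (-0.72 ± 0.19 SE, 0.00419). The basal-cell transcription factor tp63 was at 9.17, 7.02, 6.12 and 5.41 CPM in WT, 2.57, 5.59, 7 and 8.92 CPM in crkeap1a/b, 21, 20.8, 22.7 and 17.7 CPM in Bach1 DKO and 20.8, 31, 23.6 and 26.8 CPM in Bach1 DKO crkeap1a/b pools. It rose in Bach1 DKO larvae against WT (1.57 ± 0.28 SE, adjusted p 7.57e-05 by limma-voom), and was not called after keap1a/b editing in any background.

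Of 16 tested genes of periderm and surface epithelium, 1 rose and 2 fell in crkeap1a/b larvae: the annexin gene anxa1b (0.94 ± 0.24 SE, adjusted p 0.0144 by limma-voom), its relative anxa1c (-1.25 ± 0.26 SE, 0.00109) and icn (-0.82 ± 0.22 SE, 0.0169), a calcium-binding protein gene of the S100 family. The call of anxa1b was lost without WT replicate 2 or 3 or crkeap1a/b replicate 2 (0.80, 0.85 and 0.74), and that of icn without crkeap1a/b replicate 4 (-0.66). In Bach1 DKO crkeap1a/b larvae 7 rose and none fell, among them anxa1b (2.43 ± 0.29 SE, adjusted p 4.98e-08 by limma-voom), the claudin gene cldne (1.21 ± 0.22 SE, 6.75e-05) and s100a10b (0.92 ± 0.18 SE, 0.000141). In the same larvae all 7 keratins of the run were lower. Summed levels of this list were 1297 to 1523 CPM in WT, 1079.6 to 1255 CPM in crkeap1a/b, 1426 to 1568 CPM in Bach1 DKO and 1510.2 to 1791 CPM in Bach1 DKO crkeap1a/b pools. In crkeap1a larvae 4 of the 16 rose and 0 fell and in crkeap1b larvae 6 rose and 2 fell, and 0 were called in either without the 5 pools that stand apart. Of 9 tested epidermal transcription factors none was called in crkeap1a/b larvae (2 at an unadjusted p under 0.05 by limma-voom, 0 calls by edgeR and 1 by DESeq2). Among Bach1 DKO crkeap1a/b larvae, in which calls over all rows were also several times as frequent (13.7% and 11.7% against 3.35% and 1.94%), 3 of these 9 rose and 2 fell, with grhl1 (0.70 ± 0.17 SE, adjusted p 0.00184 by limma-voom) and ovol1a among those that rose. The call of ovol1a was lost without Bach1 DKO replicate 3 or edited replicate 1 (0.87 and 0.92). In Nrf2 KO crkeap1a/b larvae no gene of these 4 lists was called (all rows 0.73% higher and 0.0921% lower). The periderm list summed to 2050 to 2263 CPM in these edited pools and to 1510 to 1593 CPM in Nrf2 KO pools, higher without overlap. Its 16 tested genes had a median log2 difference of 0.469. Of single tested rows, 5.95% were higher without overlap in this comparison. Of the periderm list, 10 were at an unadjusted p under 0.05 by limma-voom, with 0 calls by edgeR and 1 by DESeq2. In the other 3 lists 2 desmosome genes, 1 basal gene and 0 transcription factors were, with 0 calls by edgeR and 0 by DESeq2.

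Relatives of the set by protein family were counted as well. Of 3 tested transglutaminases outside the tgm1 group none was called in crkeap1a/b larvae (0 at an unadjusted p under 0.05 by limma-voom, 0 calls by edgeR and 0 by DESeq2). In Bach1 DKO crkeap1a/b larvae 1 fell, tgm2a (-2.08 ± 0.67 SE, adjusted p 0.0197 by limma-voom), a gene near the floor at 2.66 and 0.442 CPM, whose call was lost without Bach1 DKO replicate 2 or edited replicate 1 (-1.80 and -1.98). Of 15 tested intermediate filament genes that are not keratins, none was called in crkeap1a/b larvae (4 at an unadjusted p under 0.05 by limma-voom, 0 calls by edgeR and 0 by DESeq2). Their summed level was 1479 to 1563 CPM in crkeap1a/b against 1645 to 1908 CPM in WT pools, and 937 to 1041 CPM in Bach1 DKO crkeap1a/b against 1153 to 1341 CPM in Bach1 DKO pools, lower without overlap in both. Of single tested rows, 6.32% and 17% were lower without overlap in these comparisons. The 15 genes had median log2 differences of -0.062 and -0.319. In Bach1 DKO crkeap1a/b larvae 1 rose, the lamin gene lmna (0.93 ± 0.20 SE, adjusted p 0.000773 by limma-voom), and 4 fell, inab by 1.00 ± 0.17 SE (adjusted p 2.42e-05 by limma-voom). In Bach1 DKO larvae against WT 1 of the 15 rose and 5 fell, vim, which encodes vimentin, by 1.12 ± 0.14 SE (adjusted p 3.37e-07 by limma-voom), and in Nrf2 KO larvae against WT 7 fell, the glial filament gene gfap by 1.21 ± 0.16 SE (adjusted p 9.96e-07 by limma-voom). Of all rows, 11.8% rose and 11.6% fell in Bach1 DKO larvae, and 7.48% fell in Nrf2 KO larvae.

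Markers of other cell types that share the larval surface or line the gut moved in part with the keratins. Beside their counts, 3.35% of all rows were called higher and 1.94% lower in crkeap1a/b larvae. In Bach1 DKO crkeap1a/b larvae the shares were 13.7% and 11.7%. Of 3 tested mucous cell genes 2 fell in crkeap1a/b larvae, agr2 (-1.30 ± 0.39 SE, adjusted p 0.0441 by limma-voom) and the mucin gene muc5.1 (-1.24 ± 0.23 SE, 0.000268), and muc5.1 fell in Bach1 DKO crkeap1a/b larvae (-2.30 ± 0.30 SE, 2.42e-07). The call of agr2 was not made by edgeR (-1.19), and it was lost without any 1 of WT replicates 1 to 3 or crkeap1a/b replicates 2 to 4 (-1.46 to -0.88). The summed level of the mucous list was 40.8 to 51.7 CPM in WT, 12.1 to 20.5 CPM in crkeap1a/b, 28.5 to 39.2 CPM in Bach1 DKO, 16.7 to 21.4 CPM in Bach1 DKO crkeap1a/b, 32.7 to 49 CPM in Nrf2 KO and 39.2 to 61 CPM in Nrf2 KO crkeap1a/b pools. In the single crispants, in which the keratin run had higher means than in WT, the mucous list was at 19.4 to 36.5 CPM in crkeap1a pools, all below WT, and at 22.8 to 57.3 CPM in crkeap1b pools. Of the 3 genes 2 fell in crkeap1a and 1 in crkeap1b larvae, where 6.97% and 8.22% of all rows were called lower. Without the 5 pools that stand apart 1 fell in crkeap1a larvae, where 313 of 15357 rows were called in either direction. Of 6 tested ionocyte genes 1 rose in crkeap1a/b and in Bach1 DKO crkeap1a/b larvae, the calcium channel gene trpv6 (2.68 ± 0.69 SE and 2.36 ± 0.59 SE, adjusted p 0.013 and 0.00308 by limma-voom), the first of these lost without WT replicate 3 (2.46). Of 5 enterocyte genes 2 rose, cdh17 and vil1, and 1 fell, the peptide transporter gene slc15a1b, in both (in crkeap1a/b larvae 0.73 ± 0.14 SE, 1.33 ± 0.17 SE and -1.32 ± 0.16 SE, adjusted p 0.000504, 2.42e-07 and 1.93e-07 by limma-voom). Of 6 hepatocyte genes none was called in crkeap1a/b larvae (1 at an unadjusted p under 0.05 by limma-voom, 0 calls by edgeR and 0 by DESeq2), and fgb (2.29 ± 0.26 SE, adjusted p 1.16e-08 by limma-voom) and 1 other rose in Bach1 DKO crkeap1a/b larvae. The part of a change in the number of mucous or other epithelial cells in the keratin and transglutaminase levels was not tested.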

How the data were processed

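Whole-larva RNA of 32 pools (8 groups, 4 pools each, 10 larvae per pool) was read from transcript 3′ ends (QuantSeq). The authors deposited one table of raw counts per gene; per the labels and the study's methods, reads were trimmed with cutadapt 1.16, checked with FastQC 0.72, aligned with STAR 2.7.5b and counted with featureCounts 1.6.3, and limma 3.40.6 was their test. How reads of near-identical copies were treated is not given in the sources used here. Of 16825 rows, 786 carry no gene ID, held 30.6% to 46.76% of the counts of a library (1 row alone 28.03% to 40.55%) and were left out of library sizes and tests, so that the planned fit over all rows became one over rows with an ID. Symbols were taken from RefSeq (GRCz12tu), which matched 15617 IDs and left 422 unmatched. RefSeq coordinates were not used, only gene order.

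Rows were filtered with filterByExpr (minimum count 10), which left 14108, scaled by TMM (factors 0.601 to 1.21) and fitted by limma-voom (limma 3.58.1, edgeR 4.0.16, R 4.3.3) with 8 group means. In this fit all 8 groups share the spread estimate of a gene. Within-group SD of log2 CPM over all rows was 0.516 in crkeap1a and 0.56 in crkeap1b, and 0.326 to 0.402 in the other groups. Adjusted p follows Benjamini and Hochberg across the tested rows, and a call is an adjusted p under 0.05. The test was checked on simulated counts with the same spread in every group, so that check does not cover groups of unequal spread. Fitted alternatives were edgeR's quasi-likelihood test, DESeq2 1.42.0, RLE factors, no filter, quality weights, compared groups only, a replicate block and leaving out each pool, and, added after the data were seen, rows without ID kept and no pools that stand apart. The floor is 3 counts per library and covers counting error only. No 2 pools of a group agreed within sampling noise. The members and lists were chosen with earlier results of these data known. Pools were printed for the genes the choice names, the 6 next most abundant and up to 5 of largest change in each line comparison, and from each list at most the 4 of largest change past the threshold were named. Some results are not reported here.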

Additional observations from a re-analysis of the deposited data

Results flagged for a closer look

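Of 152 combinations of a member and a group that were examined, 5 held 1 pool far from the other 3, by a criterion that chance meets in about 1 of 20 groups. For evpla, WT replicate 3 was at 58.6 CPM while the other WT pools were at 68.9 to 69.8 CPM, and crkeap1b replicate 2 was at 66 CPM while the others were at 12.2 to 14.3 CPM. That crkeap1b pool is the one of its group that does not stand apart on the first component. For krt1-19e, crkeap1a replicate 3 was at 751 CPM against 319 to 354 CPM in the others, and it was the highest of its group for all 7 keratins of the run. For krt18b, WT replicate 4 was at 39.3 CPM against 6.6 to 11.9 CPM. For ppl, Nrf2 KO replicate 1 was at 126 CPM against 107 to 108 CPM.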

How the results depend on the processing

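For members between lines, 390 values kept direction and call under the alternatives, 42 kept direction only and 0 turned. After keap1 editing, 783 values moved by less than the spread between pools, 23 by more and 1 turned. The replicate block gave 9, 10 and 10 called members in Bach1 DKO against WT, Nrf2 KO against WT and Nrf2 KO against Bach1 DKO, and 10, 13, 12, 14 and 0 in the comparisons of crkeap1a, crkeap1b, crkeap1a/b, edited Bach1 DKO and edited Nrf2 KO larvae with their unedited groups. Replicate numbers were not taken to pair the pools, since in no 2 groups was every same-number correlation over 0.1. Bach1 DKO and its edited group came closest (lowest 0.075, mean 0.128, next highest mean 0.055), where 5 of 8 pools correlated best with their own number. In this line tgm1l1 was lower in each edited pool than in the unedited pool of the same number. Levels of krt18b were lowest in replicates 3 and 4 of both groups. The labels do not state whether pools of the same number share a clutch. Leaving out 1 pool gave 7 to 9, 4 to 8 (of 9) and 7 to 10 called members between lines, 5 to 14 (of 10) in crkeap1a, 11 to 17 in crkeap1b, 11 to 12 in crkeap1a/b, 12 to 14 in edited Bach1 DKO and 0 in edited Nrf2 KO larvae. With compared groups only, crkeap1a against WT had 2 called members. Without the pools that stand apart it had 1, crkeap1b against WT had 2, krt8 turned to -0.29, pleca to 0.086 and nefma to 0.05 in crkeap1b larvae; fewer samples enter these fits. Nrf2 KO crkeap1a/b against Nrf2 KO had 0 called members by limma-voom with TMM, 1 by DESeq2, 2 with quality weights and 4 with compared groups only; the cause was not tested. Over all rows, calls went from 1865 to 420 (compared groups only), 1231 (quality weights) and 313 (without the pools that stand apart) in crkeap1a, from 2548 to 472 and 67 (compared groups only; without those pools) in crkeap1b, and from 116 to 727, 594 and 237 (compared groups only, quality weights, DESeq2) in Nrf2 KO crkeap1a/b larvae. Other scalings changed the sign of no called member. A fit without the most abundant row was not run separately, since that row has no ID and was left out throughout. Depth limits genes near the floor, such as tgm1l3, tgm1l6 and krt93.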
